A study of Mus musculus with 19 samples.

Results

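The Fc gamma receptors are the cell surface proteins through which white blood cells bind the constant part of IgG. They were followed here as 6 genes, the 4 mouse Fc gamma receptor chains Fcgr1, Fcgr2b, Fcgr3 and Fcgr4, their signalling chain Fcer1g, and the neonatal Fc receptor Fcgrt, out of 46983 genes in the count table. The members were chosen by gene symbol, with earlier results of these data known. All 6 passed the filter on low counts that left 16763 genes. They were measured by poly(A) RNA sequencing of 19 implanted 4T1 tumours, 4T1 being a mammary carcinoma line of BALB/c mice. The 4 groups were tumours of the LDHA knockdown line (4T1-KD, called LDHA-KD below) given anti-CTLA-4 (n = 5) or IgG (n = 5), and tumours of the control line (4T1-Sc) given anti-CTLA-4 (n = 5) or IgG (n = 4). Every tumour came from 1000000 cells implanted in a BALB/cAnN mouse with no earlier tumour, and dosing began on day 3 with 3 doses spaced by 3 days. Mouse age, how many knockdown lines were made, and the clone and isotype of the antibody are not given in the sources used here, so the treated groups cannot be described by how strongly their antibody binds each receptor. Both arms received an antibody, and no tumours without one were analysed here.

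Activating Fc gamma receptors cross-linked by antibody-coated cells drive phagocytosis, killing and cytokine release by macrophages, neutrophils and natural killer cells. In the mouse these are Fcgr1, which binds monomeric IgG with high affinity, and Fcgr3 and Fcgr4, which bind IgG in complexes. All of them depend on Fcer1g, the common gamma chain, whose ITAM motif recruits the kinase Syk. Fcgr2b carries an inhibitory ITIM motif instead and recruits the phosphatase encoded by Inpp5d. Fcgrt is a different kind of receptor: paired with beta-2-microglobulin, it binds IgG inside cells and returns it to the circulation. Fc gamma receptors on tumour macrophages are known to matter for anti-CTLA-4, because antibody bound to regulatory T cells can engage them, and Fcgr4 has been tied to that depletion in mice.

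Fcgr2b, Fcgr4, Fcgr3 and Fcer1g are neighbours on chromosome 1. On GRCm38 (GENCODE M21) Fcgr2b runs from 170958617 to 170976547 on the minus strand, Fcgr4 from 171018920 to 171029761 on the plus strand, Fcgr3 from 171051174 to 171064935 on the minus strand and Fcer1g from 171229572 to 171234365 on the minus strand. Fcgr1 is on chromosome 3, from 96282909 to 96293969, and Fcgrt on chromosome 7, from 45092990 to 45103851, both on the minus strand. RefSeq promoters of build GRCm38.p6, from 250 bases before to 50 bases after each start, were matched for all 6 genes, as 7 windows because Fcgr3 has a pair of starts. The core recognised by PU.1 (Spi1), the transcription factor of the myeloid lineage, was searched for on both strands as GAGGAA. It was found in the promoters of Fcgr1, Fcgr3 and Fcgr4, the activating receptors, where it lies on the strand opposite the gene and so reads TTCCTC. The windows below are printed 5′ to 3′ on the strand of the gene because these activating genes share that match close to their start; capitals mark it. They are Fcgr4 at chr1:171018884-171018929, Fcgr3 at chr1:171059384-171059429 and Fcgr1 at chr3:96293999-96294044.
Fcgr4: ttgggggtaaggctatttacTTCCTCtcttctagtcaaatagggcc
Fcgr3: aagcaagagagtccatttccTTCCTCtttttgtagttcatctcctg
Fcgr1: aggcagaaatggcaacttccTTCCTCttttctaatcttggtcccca
The match began 22 bases before the start of Fcgr4, 55 before that of Fcgr1, and 6 or 15 before those of Fcgr3. These are RefSeq starts, and the Fcgr3 window lies inside the GENCODE span of that gene given above. The Fcgr2b promoter window, chr1:170976022-170976321, also lies wholly inside the GENCODE span of its gene. The same letters are in 28.3% of all 32851 RefSeq mouse promoters of this length, and they are not in these windows of Fcgr2b, Fcer1g or Fcgrt. Another pattern, TTCNNNGAA, was also searched for. Among the member windows it was found only in that of Fcgr1, beginning 109 bases before the start, and it is in 8.3% of all RefSeq promoters. These are matches of letters, and binding was not measured.

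The libraries held 31.8 to 43.3 times 1000000 counts in genes, and a count of 3, used as the floor, was 0.0693 to 0.0944 CPM, far below every member. CPM is counts per 1000000 of the TMM-scaled library total. Ldha, the knockdown's target, had 452 to 584 CPM in the LDHA-KD samples and 1283 to 2244 CPM in the control samples, with no overlap. Replicates 3 and 5 of both anti-CTLA-4 groups lay apart on the second principal component, so results were also computed without those 4 libraries. No label says that replicates came from separate mice, so the p-values reflect only sample-to-sample spread, which may be technical.

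The activating receptors differed most in Fcgr4. It had 104, 53.5, 82.4, 94.2 and 69.4 CPM in LDHA-KD tumours with anti-CTLA-4, against 26.8, 35.5, 23.5, 30.2 and 47.7 CPM in anti-CTLA-4 control tumours. Under IgG it had 76.0, 102, 60.6, 79.5 and 95.7 CPM in LDHA-KD tumours, against 25.7, 31.2, 20.2 and 34.1 CPM in control tumours. Every LDHA-KD sample lay above every control sample, whichever antibody was given. The log2 fold change of LDHA-KD over control was 1.58 (SE 0.22, adjusted p = 2.56e-05, edgeR) under IgG, a 2.98-fold difference, and 1.30 under anti-CTLA-4 (SE 0.20, adjusted p = 6.37e-05), a 2.47-fold difference.

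Fcgr1, the high-affinity receptor, had 78.2, 53.7, 64.1, 77.1 and 60.6 CPM in LDHA-KD tumours with anti-CTLA-4, against 30.3, 39.6, 31.7, 32.7 and 36.6 CPM in anti-CTLA-4 control tumours. Under IgG it had 79.8, 100.1, 61.9, 78.1 and 87.6 CPM in LDHA-KD tumours, against 30.7, 38.5, 28.4 and 53.9 CPM in control tumours. The groups did not overlap under either antibody, and control IgG replicate 5 was the highest of its group. The log2 fold change under IgG was 1.11 (SE 0.17, adjusted p = 6.22e-05), a 2.15-fold difference. It was 0.97 (SE 0.16) under anti-CTLA-4, with an adjusted p of 9.98e-05.

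Fcgr3, the low-affinity activating receptor, had the smallest standard errors of the 6. It had 307, 263, 328, 310.2 and 299 CPM in LDHA-KD tumours with anti-CTLA-4, against 186, 174, 188, 185 and 209 CPM in anti-CTLA-4 control tumours. Under IgG it had 258, 264, 271, 282 and 285 CPM in LDHA-KD tumours, against 147, 181, 164 and 164 CPM in control tumours. The lowest LDHA-KD sample stood at 258 CPM, above the highest control sample at 209 CPM. As a log2 fold change this was 0.73 under IgG (SE 0.08, adjusted p = 6.82e-07) and 0.68 under anti-CTLA-4 (SE 0.07, adjusted p = 6.37e-07), or 1.66-fold and 1.60-fold.

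The common gamma chain Fcer1g, which the activating receptors need to reach the surface and signal, had 153, 132, 188, 167 and 175 CPM in LDHA-KD tumours with anti-CTLA-4, against 119, 91.8, 119, 87.0 and 122 CPM in anti-CTLA-4 control tumours. Under IgG it had 161, 167, 169, 146 and 171 CPM in LDHA-KD tumours, against 92.6, 104, 96.3 and 90.6 CPM in control tumours. Again no sample overlapped between the tumour types. As a log2 fold change this was 0.76 under IgG (SE 0.11, adjusted p = 2.96e-05) and 0.60 under anti-CTLA-4 (SE 0.10, adjusted p = 0.000152).

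The inhibitory receptor Fcgr2b rose alongside the activating ones. It had 613, 579.9, 701, 674 and 625 CPM in LDHA-KD tumours with anti-CTLA-4, against 377, 345, 373, 346 and 380.5 CPM in anti-CTLA-4 control tumours. Under IgG it had 557, 529.7, 605, 589 and 604 CPM in LDHA-KD tumours, against 255, 371, 382 and 299 CPM in control tumours. The groups did not overlap, and the control tumours with IgG spread most, by 60.1 CPM (SD, n = 4) around a mean of 327 CPM. As a log2 fold change this was 0.82 under IgG (SE 0.10, adjusted p = 4.64e-06) and 0.81 under anti-CTLA-4 (SE 0.09, adjusted p = 2.30e-06), or 1.77-fold and 1.75-fold. Of the 5685 words of 50 bases in the transcripts of Fcgr2b, the read length, 6.95% also occur in other genes. Fcgr3 shares 9.58% of its own 1733 words with Fcgr2b. Reads not uniquely aligned were left out of the gene counts, so reads from these words may be missing from both genes. A gene antisense to Fcgr2b, Gm38204, overlaps its exons, and the strand setting of the counting is not given in the sources used here.

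Fcgrt was the least secure of the 6. It had 186, 162, 223, 224 and 200.1 CPM in LDHA-KD tumours with anti-CTLA-4, against 146, 132, 173, 101 and 124 CPM in anti-CTLA-4 control tumours. Under IgG it had 184, 147, 226, 162 and 189 CPM in LDHA-KD tumours, against 65.3, 135, 172 and 84.4 CPM in control tumours. The groups overlapped under both antibodies, with 96% of sample pairs higher in LDHA-KD tumours under anti-CTLA-4 and 90% under IgG. As a log2 fold change this was 0.67 under IgG (SE 0.22, adjusted p = 0.0226) and 0.56 under anti-CTLA-4 (SE 0.20, adjusted p = 0.0345). The call under IgG was lost without control IgG replicate 1 (0.47, adjusted p = 0.0902), control IgG replicate 5 (0.54, adjusted p = 0.0793) or LDHA-KD IgG replicate 3 (0.58, adjusted p = 0.0585), and in a fit of those groups alone (adjusted p = 0.0505). The call under anti-CTLA-4 was lost when any of LDHA-KD replicates 3, 4 and 5 or control replicates 1, 2, 4 and 5 was left out, with adjusted p from 0.0522 to 0.0908, and without the 4 libraries that stand apart (0.59, adjusted p = 0.123). B2m, which encodes the partner chain beta-2-microglobulin, did not pass under IgG (log2 fold change 0.26, SE 0.19, adjusted p = 0.316) or under anti-CTLA-4 (0.09, SE 0.18, adjusted p = 0.707). A gene antisense to Fcgrt, Gm45669, overlaps its exons.

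**Figure D1:**
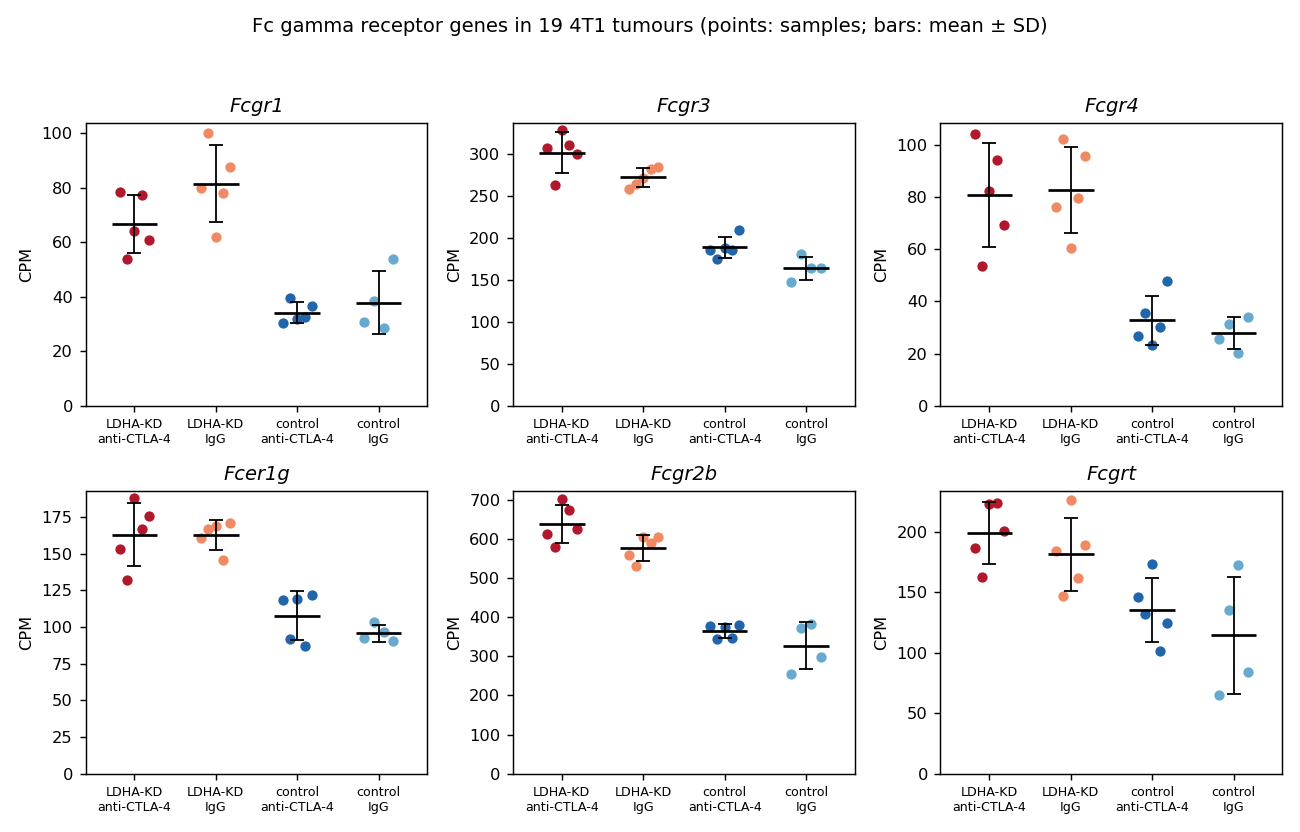
Expression of the 6 genes in CPM (vertical axis from 0) by group; points are samples, horizontal bars are means and error bars are SD (n = 5, 5, 5 and 4). The LDHA-KD samples lie above the control samples given the same antibody for Fcgr1, Fcgr3, Fcgr4, Fcer1g and Fcgr2b, and overlap with them for Fcgrt.

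All 6 genes were called higher in LDHA-KD tumours under IgG, where 16.8% of all genes tested were called higher, and all 6 under anti-CTLA-4, where 20.2% were. Across all genes 2814 were higher and 2938 lower under IgG, and 3390 higher and 3321 lower under anti-CTLA-4. With library totals alone as the scaling these became 3451 higher and 2251 lower under IgG and 4445 higher and 2369 lower under anti-CTLA-4, and the median of all genes moved to 0.07 and 0.10 on the log2 scale. All 6 members were called higher under that scaling too. The groups did not overlap for 5 of 6 members under each antibody, against 15.1% of genes under IgG and 11.6% under anti-CTLA-4 not overlapping in that direction. The median log2 fold change was 0.79 over the members and -0.00 over all genes under IgG, and 0.74 and 0.01 under anti-CTLA-4. In bulk tumour RNA, more cells of a type and more RNA per cell cannot be told apart.

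Per kilobase of annotated exon the common gamma chain had the highest mean level of the 6. The length used was the union of all annotated exons, 5790 bases for Fcgr2b, 1736 for Fcgr3 and 874 for Fcer1g. It may exceed the length of the transcripts present, so the order depends on it. In CPM alone Fcgr2b was the highest in each group, for example 577 against 163 for Fcer1g in LDHA-KD tumours with IgG. Over the 19 samples Fcer1g averaged 154 CPM per kb, Fcgr3 135, Fcgr2b 83.7, Fcgrt 76.0, Fcgr4 45.8 and Fcgr1 21.6. The order was the same within each of the 4 groups for Fcer1g, Fcgr3 and Fcgr1, which were the highest, the second and the lowest by group mean. In LDHA-KD tumours with anti-CTLA-4, however, Fcer1g had 187 ± 24.7 and Fcgr3 174 ± 13.8 CPM per kb (SD, n = 5), a gap smaller than either spread. Fcgrt (64.3 ± 12.7) stood above Fcgr2b (63.0 ± 2.99) in control tumours with anti-CTLA-4 (SD, n = 5). In control tumours with IgG, Fcgrt had 54.4 ± 23.1 and Fcgr2b 56.4 ± 10.4 CPM per kb (SD, n = 4), a gap smaller than either spread. In the same tumours Fcgr4 had 22.1 ± 4.91 and Fcgr1 14.6 ± 4.46 CPM per kb. In LDHA-KD tumours with IgG the same pair stood at 65.9 ± 13.2 and 31.5 ± 5.40 CPM per kb (SD, n = 5).

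Anti-CTLA-4 against IgG asks whether the receptors moved with the blockade itself. None of the 6 passed the test in LDHA-KD tumours or in control tumours, where 0% of all genes were called by edgeR. At an unadjusted p below 0.05 there were 1987 genes in LDHA-KD tumours and 1346 in control tumours, while DESeq2 called 50 and 11 genes after adjustment and limma voom called 0 and 0. In LDHA-KD tumours Fcgr1 averaged 66.7 ± 10.7 CPM with anti-CTLA-4 and 81.5 ± 14.0 CPM with IgG (SD, n = 5 each), a log2 fold change of -0.29 (95% interval -0.61 to 0.04, adjusted p = 0.478). In control tumours the same gene averaged 34.2 ± 3.83 CPM (n = 5) with anti-CTLA-4 and 37.9 ± 11.5 CPM (n = 4) with IgG, a log2 fold change of -0.15 (95% interval -0.50 to 0.20, adjusted p = 0.824). Fcgr3 had the narrowest intervals. It averaged 302 ± 24.02 CPM with anti-CTLA-4 and 272 ± 11.2 CPM with IgG in LDHA-KD tumours, a log2 fold change of 0.15 (95% interval 0.00 to 0.29, adjusted p = 0.416), with 84% of sample pairs higher. In control tumours Fcgr3 averaged 189 ± 12.6 CPM with anti-CTLA-4 and 164 ± 13.8 CPM with IgG, a log2 fold change of 0.20 (95% interval 0.05 to 0.36, adjusted p = 0.601), with 95% of sample pairs higher. For both comparisons of Fcgr3 the unadjusted p was below 0.05 (0.0457 and 0.0132) and did not survive adjustment over all genes.

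Fcgr4 stood at 80.8 ± 20.04 CPM with anti-CTLA-4 and 82.8 ± 16.5 CPM with IgG in LDHA-KD tumours, and at 32.7 ± 9.48 CPM with anti-CTLA-4 and 27.8 ± 6.16 CPM with IgG in control tumours. Its log2 fold change was -0.04 (95% interval -0.45 to 0.38) in LDHA-KD tumours and 0.24 (95% interval -0.22 to 0.69) in control tumours. These intervals do not show that the level was the same with either antibody. For Fcgr2b the log2 fold change was 0.15 (SE 0.09) and 0.16 (SE 0.10), for Fcer1g 0.00 (SE 0.10) and 0.17 (SE 0.11), and for Fcgrt 0.13 (SE 0.20) and 0.24 (SE 0.22), in LDHA-KD and control tumours in that order. The adjusted p of these lay between 0.539 and 0.993. The interaction, which subtracts the antibody difference of control tumours from that of LDHA-KD tumours, was not called for any member by edgeR, where 0% of genes were called and 415 had an unadjusted p below 0.05. DESeq2 called 0 genes for it. Its estimate was widest for Fcgr4, at -0.27 (95% interval -0.89 to 0.34).

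**Figure D2:**
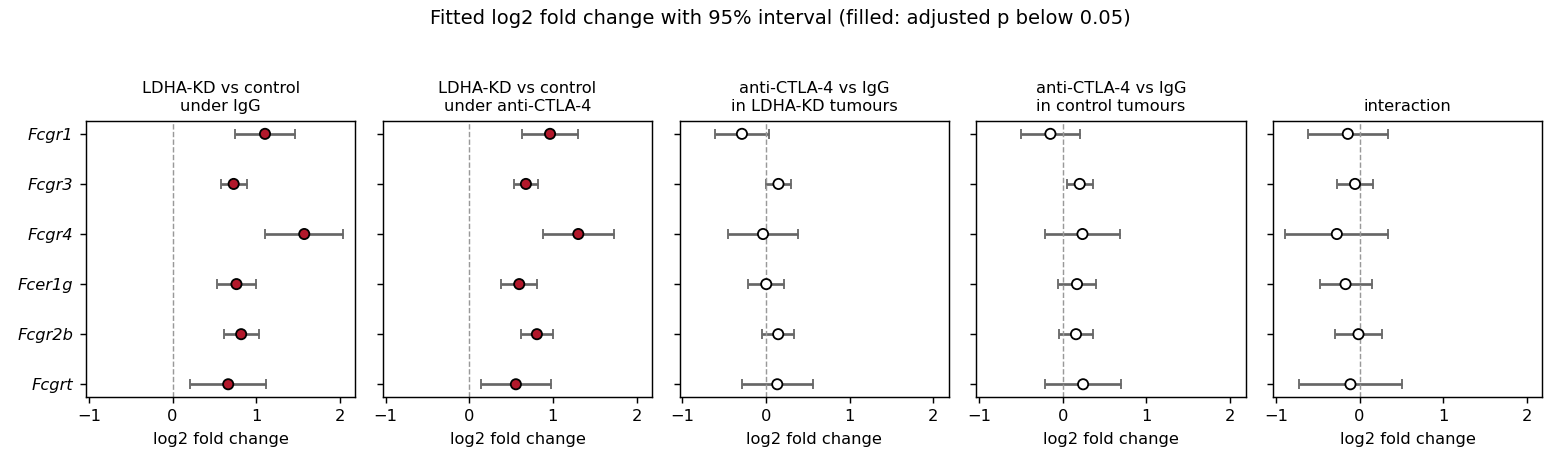
Fitted log2 fold change (horizontal axis) of each gene in the 5 comparisons, with 95% intervals from edgeR; filled points have an adjusted p below 0.05. All 6 points are filled and above 0 for LDHA-KD over control under both antibodies, and no point is filled for anti-CTLA-4 over IgG or the interaction.

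By level, the 4 groups of tumours fell in the same broad order for each gene: LDHA-KD tumours with either antibody, then control tumours with either antibody. Within a tumour type the pair of antibody groups lay next to each other in the order of means and did not pass the test. Fcgr1 was the member whose mean was lower with anti-CTLA-4 in both tumour types. Fcgr2b, Fcgr3, Fcgrt and Fcer1g had higher means with anti-CTLA-4 in both, although Fcer1g averaged 163 CPM with either antibody in LDHA-KD tumours after rounding.

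Whether an immune cell fires after binding IgG is known to depend on the balance of activating and inhibitory receptors, and the ratio of an activating receptor to Fcgr2b is read within a library, where scaling cancels. On the log2 scale Fcgr4/Fcgr2b was -2.55, -3.44, -3.09, -2.84 and -3.17 in LDHA-KD tumours with anti-CTLA-4, against -3.82, -3.28, -3.99, -3.52 and -2.996 in anti-CTLA-4 control tumours. Under IgG it was -2.87, -2.37, -3.32, -2.89 and -2.66 in LDHA-KD tumours, against -3.31, -3.57, -4.24 and -3.13 in control tumours. The groups overlapped under both antibodies, although 84% of pairs under anti-CTLA-4 and 90% under IgG were higher in LDHA-KD tumours. The difference was 0.74 under IgG (two-sided exact permutation p = 0.0317, adjusted over 12 ratio tests 0.127) and 0.50 under anti-CTLA-4 (exact permutation p = 0.0794, adjusted 0.238). The smallest p that these exact tests allow is 0.00794.

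None of the 12 ratio tests passed after adjustment. With a smallest possible p of 0.00794, a single ratio could not pass by itself over 12 tests, so this does not show that a difference is absent. Fcgr1/Fcgr2b differed between LDHA-KD and control tumours by 0.30 under IgG (exact permutation p = 0.325) and 0.15 under anti-CTLA-4 (exact permutation p = 0.286). For anti-CTLA-4 minus IgG in LDHA-KD tumours the same ratio differed by -0.43, with 8% of pairs higher (exact permutation p = 0.0317, adjusted 0.127). Fcgr3/Fcgr2b differed between LDHA-KD and control tumours by -0.13 under anti-CTLA-4 (exact permutation p = 0.0159, adjusted 0.127) and by -0.10 under IgG (exact permutation p = 0.286, adjusted 0.5). A test over both antibodies, which permutes LDHA-KD and control samples within each of them, was added after the values had been seen. In it Fcgr4/Fcgr2b was 1.54-fold higher in LDHA-KD tumours, a log2 difference of 0.62 (n = 10 and 9, exact permutation p = 0.00265, adjusted over 9 tests 0.0143). In the same test Fcgr1/Fcgr2b differed by 0.22 (exact permutation adjusted p = 0.185) and Fcgr3/Fcgr2b by -0.12 (exact permutation adjusted p = 0.0644). The last of these passed without LDHA-KD anti-CTLA-4 replicate 1, control anti-CTLA-4 replicate 2 or control IgG replicate 4, with exact permutation adjusted p = 0.0448, 0.0490 and 0.00446.

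**Figure D3:**
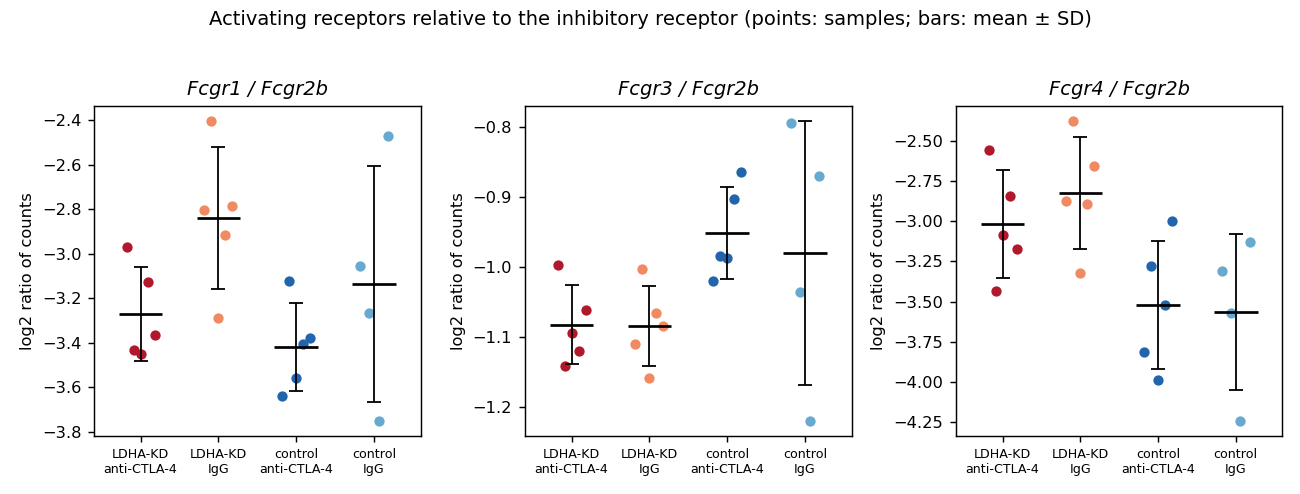
Log2 ratio of the counts of Fcgr1, Fcgr3 and Fcgr4 to those of Fcgr2b in each sample (vertical axis, scale differs by panel), by group; bars are mean ± SD. The Fcgr4 ratio averages -3.02 and -2.82 in LDHA-KD tumours with anti-CTLA-4 and IgG, and -3.52 and -3.56 in control tumours with anti-CTLA-4 and IgG, with overlap between the tumour types.

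Markers of some of the cells that carry these receptors were also higher, and those of others were not. Of 10 macrophage markers (Csf1r, Adgre1, Cd68 and others) 8 were called higher in LDHA-KD tumours under IgG, and all 10 under anti-CTLA-4. Their summed level was 3696 to 4146.5 CPM in LDHA-KD and 1764 to 2203 CPM in control tumours under anti-CTLA-4, and 3749 to 3977 CPM in LDHA-KD and 1523 to 2495 CPM in control tumours under IgG. The median log2 fold change of these markers was 0.90 under IgG and 0.89 under anti-CTLA-4, next to 0.79 and 0.74 for the members. No macrophage, natural killer cell, mast cell, neutrophil, monocyte, dendritic cell, B cell or endothelial marker tested was at 0 in any library, and members' levels relative to the macrophage markers are given below. Under IgG the natural killer cell markers were called higher for 6 of 7 with 1 lower, with sums of 12.1 to 16.6 CPM in LDHA-KD and 6.68 to 10.3 CPM in control tumours. Mast cell markers were higher for 7 of 7, with sums of 388 to 765 CPM in LDHA-KD and 94.0 to 139 CPM in control tumours. Of 8 neutrophil markers 1 was higher and 1 lower, with overlapping sums of 365 to 825 CPM in LDHA-KD and 580.1 to 1124 CPM in control tumours. Monocyte markers were higher for 2 of 5, with overlapping sums of 357 to 653 CPM in LDHA-KD and 253 to 547 CPM in control tumours. Dendritic cell markers were higher for 6 of 8 with 1 lower, with sums of 37.7 to 43.8 CPM in LDHA-KD and 18.4 to 29.9 CPM in control tumours. B cell markers were higher for 2 of 5 tested, with overlapping sums of 1.67 to 3.03 CPM in LDHA-KD and 1.28 to 1.68 CPM in control tumours. Endothelial cells, which can carry Fcgrt, had all 6 markers lower under IgG, with sums of 195 to 253 CPM in LDHA-KD and 314 to 410.2 CPM in control tumours. Under anti-CTLA-4 the natural killer cell markers were again higher for 6 of 7 with 1 lower, but their sums overlapped. These sums were 8.13 to 23.3 CPM in LDHA-KD and 7.29 to 11.9 CPM in control tumours. The mast cell markers were again higher for 7 of 7 under anti-CTLA-4. There 1 of 8 neutrophil and 3 of 6 endothelial markers were lower and 0 of either were higher, with overlapping sums. Under anti-CTLA-4 the monocyte markers were higher for 3 of 5, the dendritic cell markers for 6 of 8 with 1 lower, and the B cell markers for 1 of 5 with 1 lower. The monocyte and B cell sums overlapped between the tumour types there, and the dendritic cell sums did not. T cell markers were higher for 7 of 7 under each antibody. Their sums were 65.3 to 119 CPM in LDHA-KD and 25.3 to 49.2 CPM in control tumours under anti-CTLA-4, and 48.8 to 76.0 CPM in LDHA-KD and 12.7 to 25.5 CPM in control tumours under IgG. Of 4 eosinophil markers tested 3 were higher under anti-CTLA-4 and 1 under IgG, and 1 to 3 of the 6 listed had no count in 8 of the 9 control libraries. Of 6 markers of epithelial tumour cells 4 were lower under anti-CTLA-4 and 2 under IgG, with 0 higher. Their sums were 2106 to 3286 CPM in LDHA-KD and 3626 to 4441 CPM in control tumours under anti-CTLA-4, and 3004 to 3360 CPM in LDHA-KD and 3573 to 4666 CPM in control tumours under IgG. Of 6 fibroblast markers 3 were higher and 0 lower under anti-CTLA-4, and 1 higher and 2 lower under IgG. The part of each of these cell types in the members' differences was not tested.

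Set against the mean log2 CPM of the 10 macrophage markers in the same library, Fcgr4 was the member with the largest positive difference between LDHA-KD and control tumours. Its difference from the markers was -1.002, -1.83, -1.20, -1.18 and -1.39 in LDHA-KD tumours with anti-CTLA-4, against -1.96, -1.79, -2.33, -1.70 and -1.03 in anti-CTLA-4 control tumours. Under IgG it was -1.41, -1.13, -1.67, -1.40 and -1.17 in LDHA-KD tumours, against -1.73, -1.97, -2.58 and -1.91 in control tumours. The groups overlapped under anti-CTLA-4 and did not under IgG. LDHA-KD minus control was 0.69 under IgG (exact permutation p = 0.0159, adjusted over 24 tests 0.190) and 0.44 under anti-CTLA-4 (exact permutation p = 0.143, adjusted 0.364). None of the 24 tests passed after adjustment. The smallest p that they allow is 0.00794, so a single member could not pass by itself after adjustment over 24 tests. The lack of a pass therefore does not show that a difference is absent. In the test over both antibodies, which was added after the values had been seen, the difference was 0.57, or 1.48-fold (exact permutation p = 0.00318, adjusted over 9 tests 0.0143). With Csf1r, the macrophage growth factor receptor, as the single marker it was 0.38 and no longer passed (exact permutation adjusted p = 0.0895).

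Over both antibodies the other members differed from the macrophage markers by less. The difference was 0.17 for Fcgr1, -0.05 for Fcgr2b, -0.17 for Fcgr3, -0.19 for Fcer1g and -0.21 for Fcgrt, with exact permutation adjusted p from 0.0768 to 0.477. The value of Fcgr3 passed without control anti-CTLA-4 replicate 2 (exact permutation adjusted p = 0.0278) and without control IgG replicate 5 (exact permutation adjusted p = 0.0438). With Csf1r as the single marker, Fcgr2b (-0.24), Fcgr3 (-0.35), Fcer1g (-0.38) and Fcgrt (-0.40) were lower in LDHA-KD tumours relative to it, with exact permutation adjusted p of 0.0342, 0.0119, 0.0144 and 0.0144. Fcgr1 then stood at -0.01.

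**Figure D4:**
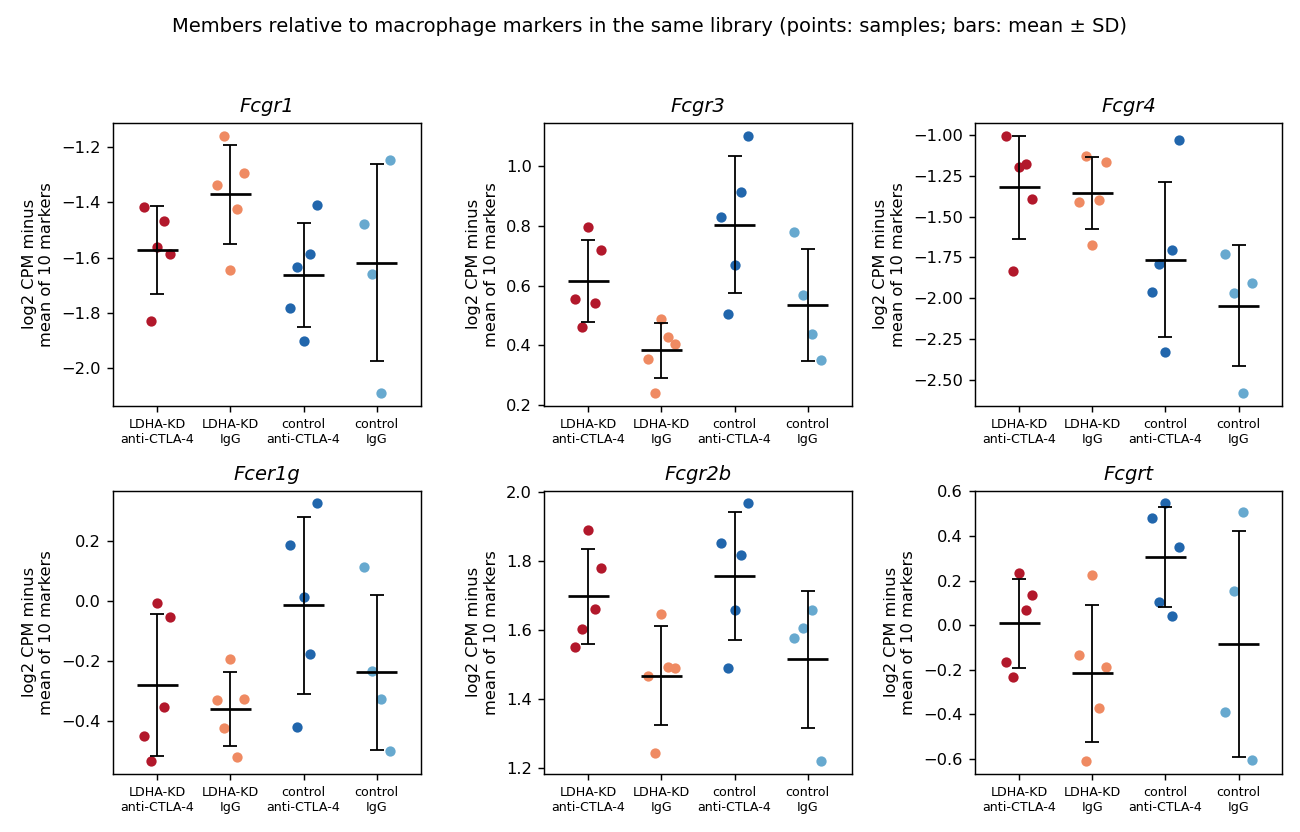
Log2 CPM of each gene minus the mean log2 CPM of 10 macrophage markers in the same sample (vertical axis, scale differs by panel), by group; bars are mean ± SD. Fcgr4 averages -1.32 and -1.36 in LDHA-KD tumours with anti-CTLA-4 and IgG, and -1.76 and -2.05 in control tumours with anti-CTLA-4 and IgG.

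Downstream of the receptors, most genes of the activating pathway were also higher in LDHA-KD tumours. Of 16 proximal kinases and adaptors 12 were called higher and 0 lower under IgG, with a median log2 fold change of 0.75, and 14 higher and 0 lower under anti-CTLA-4, with a median of 0.77. Btk, a Tec family kinase, rose by 1.002 (SE 0.12) under IgG and 0.93 (SE 0.12) under anti-CTLA-4. Lcp2, the adaptor SLP-76, rose by 0.82 (SE 0.13) and 0.83 (SE 0.12). Pik3cg, a catalytic subunit of phosphoinositide 3-kinase, rose by 0.89 (SE 0.14) and 1.01 (SE 0.13), under IgG and anti-CTLA-4 in that order. The phagocytic machinery and NADPH oxidase list had 10 of 12 higher under IgG (median 0.97) and 11 of 12 under anti-CTLA-4 (median 0.94), with 0 lower. Among them Rac2, the small GTPase of phagocyte oxidase, rose by 1.118 (SE 0.14) under IgG, and Ncf4, a cytosolic oxidase subunit, by 0.96 (SE 0.15).

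The inhibitory arm was mixed. Of 8 phosphatases and adaptors 3 were higher and 1 lower under IgG (median 0.16), and 5 higher and 1 lower under anti-CTLA-4 (median 0.34). Over all genes tested 16.8% were called higher under IgG and 20.2% under anti-CTLA-4. The 3 genes named next had the smallest p of the list under IgG and were all higher, so they do not represent the whole list. Inpp5d, the phosphatase SHIP-1 recruited by Fcgr2b, rose by 0.80 under IgG (SE 0.14, adjusted p = 0.000222) and 0.91 under anti-CTLA-4 (SE 0.13, adjusted p = 2.76e-05). Dok2, an inhibitory adaptor, rose by 1.17 (SE 0.14) and 1.09 (SE 0.13), and Ptpn6, the phosphatase SHP-1, by 0.51 (SE 0.08) and 0.56 (SE 0.08).

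The 3 other receptor adaptor genes listed were all higher under both antibodies. Cd247, the zeta chain of T cell and natural killer cell receptors, rose by 1.66 (SE 0.23) under IgG, Hcst by 1.17 (SE 0.21) and Tyrobp, the DAP12 adaptor of myeloid cells, by 0.80 (SE 0.15). Hcst encodes DAP10, which signals through a YxxM motif rather than an ITAM. Of the 4 tested genes whose proteins also pair with the common gamma chain, 2 were higher under each antibody. Ncr1, a natural killer cell receptor, rose by 2.17 (SE 0.37) and Clec4n, the fungal receptor Dectin-2, by 0.57 (SE 0.15) under IgG. Clec4d, another C-type lectin, had 0.62 (SE 0.28, adjusted p = 0.0947) and did not pass.

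More of the immunoglobulin chain genes than of the genes for receptors of other immunoglobulins passed the test. Of 10 immunoglobulin chain genes 7 were tested and 5 were higher under each antibody, with medians of 2.61 under IgG and 1.71 under anti-CTLA-4. The IgG heavy chain genes Ighg2b, Ighg2c and Ighg3 did not pass the filter on low counts, so these counts do not cover them. Igkc, the kappa light chain constant gene, had 4.70 ± 1.74 CPM in LDHA-KD tumours (n = 5) and 0.706 ± 0.247 CPM in control tumours (n = 4) with IgG, or 2.73 as a log2 fold change (SE 0.56, adjusted p = 0.000871). Jchain, which joins polymeric antibodies, rose by 2.61 (SE 0.59) and Ighm, the IgM heavy chain, by 1.93 (SE 0.44) under IgG. These are transcripts of the mouse's own antibody genes and do not measure the injected antibody. Of 11 receptors for other immunoglobulins 8 were tested, with 3 higher under IgG and 4 under anti-CTLA-4. Fcer1a, the IgE-binding chain of the mast cell receptor, which also uses Fcer1g, rose by 2.04 (SE 0.34) and its partner Ms4a2 by 1.45 (SE 0.20) under IgG. Fcrla, an Fc receptor-like protein of B cells, rose by 1.43 (SE 0.28).

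Complement receptors, some of which are a further route for opsonised targets, were higher for 4 of 6 genes under IgG. Under anti-CTLA-4 they were higher for 6 of 6, with medians of 0.98 under IgG and 0.86 under anti-CTLA-4. Itgam and Itgb2, the chains of complement receptor CR3, rose by 1.03 (SE 0.11) and 1.03 (SE 0.15) under IgG, and C3ar1, the anaphylatoxin receptor, by 0.68 (SE 0.07). Among 8 transcription factors of myeloid cells 4 were higher under IgG and 5 under anti-CTLA-4, with a median of 0.56 both times. Spi1, which encodes PU.1, the factor whose core was searched for in the promoters above, rose by 0.92 (SE 0.18) under IgG and 0.98 (SE 0.17) under anti-CTLA-4. Irf8 rose by 0.64 (SE 0.12) and Irf5 by 0.80 (SE 0.14) under IgG. For anti-CTLA-4 against IgG, 0 genes of these 9 lists were called in either tumour type by edgeR, as for all genes.

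**Figure D5:**
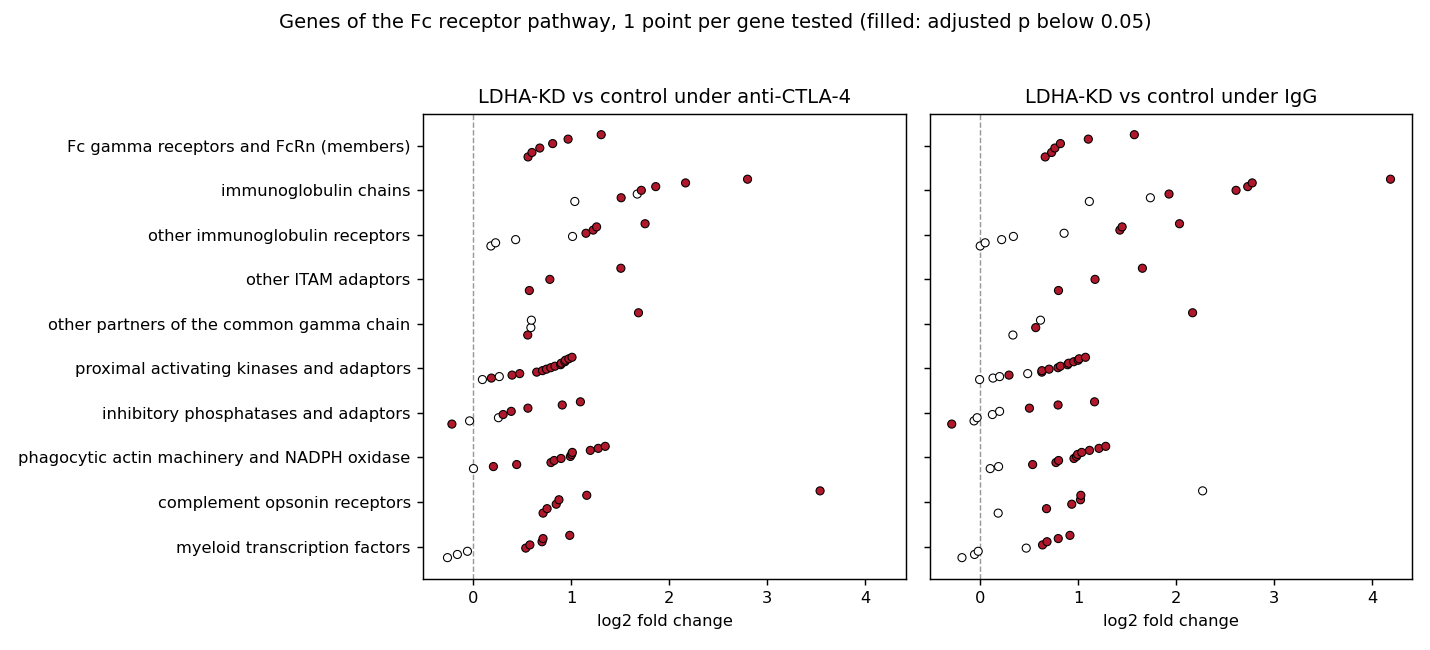
Log2 fold change of LDHA-KD over control tumours (horizontal axis) for each tested gene of the 6 members and 9 pathway lists, under anti-CTLA-4 (left) and IgG (right); filled points have an adjusted p below 0.05. The members lie between 0.56 and 1.58, and the inhibitory list is the row with a called gene below 0 under both antibodies.

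Among themselves the members did not vary as a block. The SD over the 19 samples of the log2 ratio between a pair of genes was smallest for Fcgr2b and Fcgr3, at 0.11, followed by Fcgr3 and Fcer1g, at 0.13. It was largest for Fcgr4 and Fcgrt, at 0.66, and Fcgr1 and Fcgr4 differed from each other with an SD of 0.30. Fcgr2b and Fcgr3, the pair with the smallest SD, are also the pair that shares sequence, while Fcer1g shares words of 50 bases with 0 other genes. Whether shared sequence bears on the likeness was not tested. The levels varied across samples with an SD of 0.81 on the log2 scale for Fcgr4, 0.60 for Fcgr1, 0.48 for Fcgrt, 0.45 for Fcgr2b and 0.38 for both Fcgr3 and Fcer1g.

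By the same measure over 11686 genes, which leave out the members themselves, the genes nearest to each member were as follows. Were members counted, Fcgr3 would stand between Cpne2 and Prkch for Fcgr2b, and Fcgr2b between Fzd7 and Rhoh for Fcgr3, both at 0.11. Nearest to Fcgr4 were Plbd1 (SD of the log2 ratio 0.17), H2-Aa (0.21), a chain of MHC class II, and Klrb1b (0.23), a lectin-like receptor of natural killer cells. Nearest to Fcgr1 were Pilra (0.12), an inhibitory receptor of myeloid cells and Ms4a4c (0.13). Fcgr3 lay nearest to Tmem106a (0.09), Fzd7 (0.11), a Wnt receptor, and Rhoh (0.12), a GTPase of blood cells. Fcer1g lay nearest to Psen2 (0.09), a presenilin, Tmem106a (0.11) and Ifi30 (0.11), a lysosomal thiol reductase. Fcgr2b lay nearest to Cpne2 (0.11), Prkch (0.13), a protein kinase C, and Ern1 (0.13), a sensor of unfolded proteins. Fcgrt lay nearest to Tmem37 (0.12), Folr2 (0.16), a folate receptor of resident macrophages, and Itga9 (0.17), an integrin chain. Tmem106a is in both the list of Fcgr3 and that of Fcer1g, and each of the other neighbours named is in a single list. All samples of a tumour type share the difference between the tumour types, which adds to this likeness.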

How the data were processed

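The authors deposited raw counts per gene, not normalized, for 19 tumours. Per the submitters' processing notes HTSeq 0.5.3 and Picard 1.124 were used on mm10; the aligner, annotation release and strand setting are not given in the sources used here. Per the labels' protocols 500 ng of RNA went through poly(A) selection and a stranded kit with 8 PCR cycles. Summary lines were left out; unassigned reads were 8.42% to 13.8% and reads not uniquely aligned 10.2% to 14.1% of records. No library was a copy of another (171 pairs, lowest chi-square per gene 5.42). Floors cover counting error only, as reads are not independent molecules.

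Counts were fitted in R 4.3.3 with edgeR 4.0.16: filterByExpr, TMM factors, all 19 samples, 1 coefficient per group, quasi-likelihood F tests, and Benjamini-Hochberg adjustment over 16763 genes at 0.05. Alternatives used DESeq2 1.42.0, limma 3.58.1 (voom), other scalings, filters, group subsets, a replicate block and left-out libraries. Receptor ratios used a pseudocount of 0.5, and the log2 CPM used with macrophage markers a prior count of 2. Both were tested by two-sided exact permutation in Python 3.11.15. Scripts were tested on simulated data. For LDHA-KD over control under IgG, edgeR recovered 55.1% of simulated log2 changes of 0.6 and 98.0% of those of 1. Smaller changes were not simulated. Where a symbol had more than 1 row (Itgam), the row with more counts was used. Named genes were the members, Ldha, B2m, up to 3 genes per pathway list with the smallest p under IgG, and the 3 genes nearest each member by the SD of the log2 ratio, from genes whose mean log2 CPM reached 1. A few genes this rule names are not reported here. The members, lists and tests were chosen with earlier results of these data known.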

Additional observations from a re-analysis of the deposited data

How the results depend on the processing

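The counts of members called (6, 6, 0, 0 and 0 in the 5 comparisons) stayed within 1.5 times of their values under every alternative, with 5 to 6 called for LDHA-KD over control when single libraries were left out; the member lost was Fcgrt. None of the planned ratio tests passed under any alternative. The smallest p of these exact tests is 0.00794 with all samples, so a single ratio could not pass by itself. Their result therefore does not show stability. The number of ratio tests passing over both antibodies, 2, became 6 with Csf1r as the single macrophage marker and 2 to 4 without single libraries; it was 4 without control anti-CTLA-4 replicate 2.

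Changes of sign concerned values that never passed a test. Fcer1g under anti-CTLA-4 against IgG in LDHA-KD tumours was -0.00537 with limma voom, -0.000850 with library totals only, -0.00309 in a fit of those groups alone and -0.111 without the 4 libraries that stand apart. Without those libraries Fcgr4 became 0.0216, Fcgr3/Fcgr2b -0.00166 and Fcer1g relative to macrophage markers -0.0863 in the same comparison. The interaction of Fcgr2b was 0.0203 with library totals only. With Csf1r alone, Fcgr1 relative to it was -0.106 for LDHA-KD over control under anti-CTLA-4 and -0.0140 over both antibodies.

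Without single libraries, values for anti-CTLA-4 over IgG in LDHA-KD tumours ranged from -0.0534 to 0.0698 for Fcer1g, -0.145 to 0.0808 for Fcgr4, -0.0197 to 0.0218 for Fcgr3/Fcgr2b and -0.0450 to 0.163 for Fcgr4 relative to macrophage markers. In control tumours they ranged from -0.264 to 0.0712 for Fcgr1, -0.201 to 0.0795 for Fcgr1 relative to macrophage markers, -0.0518 to 0.0899 for Fcgr3/Fcgr2b and -0.183 to 0.188 for Fcgr4/Fcgr2b. The interaction ranged from -0.0963 to 0.0853 for Fcgr2b and -0.376 to 0.0802 for Fcgrt. LDHA-KD over control under IgG, relative to macrophage markers, ranged from -0.145 to 0.00839 for Fcgr2b and -0.306 to 0.0644 for Fcgrt. The cause of these changes was not tested.

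The groups share replicate numbers, but the 27 same-numbered pairs of samples had correlations of deviations from -0.21 to 0.39, with a median of 0.12, against -0.04 over the 108 other pairs. Of the 27 pairs, 15 were over 0.1. The numbers were not taken to pair the samples in the main fit, and whether samples with the same number share a source was not tested. With the replicate number as a block, 5941 genes were called under IgG and 7144 under anti-CTLA-4, against 5752 and 6711 without it. Members called with the block were 6, 6, 0, 0 and 0. Under the block Fcgrt stood at 0.75 under IgG and Fcer1g at -0.00543 for anti-CTLA-4 over IgG in LDHA-KD tumours. Depth does not limit the members, which all lie far above the floor of 3 counts.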
